A study of Homo sapiens with 42 samples.

Results

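MEF2A, MEF2C and MEF2D are 3 genes of 58869 analysed in RNA-seq libraries of 2 human acute myeloid leukaemia cell lines treated with a menin inhibitor, a MEK inhibitor or both. They were chosen by symbol, because MEF2C had moved in opposite directions in the 2 lines under the menin inhibitor in an earlier reading of the same libraries. That contrast is therefore described here with no test for any of the 3 genes. MEF2C is also described with no test wherever a DMSO group or a group with the menin inhibitor alone is compared. OCI-AML3 carries a mutant NPM1 (labelled NPM1c+) and NOMO1 carries a rearranged KMT2A (labelled KMT2A-r). Each line was grown in 7 conditions with 3 libraries each, which gave 14 groups and 42 libraries, and each genotype is thus represented by 1 cell line. The conditions were the vehicle DMSO at day 3 and at day 6, VTP-50469 (a menin inhibitor) at 100 nM at day 3 and at day 6, selumetinib (a MEK inhibitor) at 100 nM, and both drugs at day 3 and at day 6. The labels place the selumetinib libraries at day 1 in some fields and at day 3 in others, include no DMSO group at day 1, and do not give how long selumetinib was present in the combination. Whether replicate libraries were grown as independent cultures is not stated, so p-values measure only the spread between these libraries, which may be technical.

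MEF2 proteins are transcription factors of the MADS-box family. They bind an AT-rich DNA element as dimers, are held inactive by class IIa histone deacetylases, and are released or activated by calcium-dependent kinases, by calcineurin and by the p38 and ERK5 kinases. The family was named for muscle, where it acts with myogenic factors. In blood, MEF2C acts in lymphoid and monocytic cells and is known for high expression in leukaemias with rearranged KMT2A, MEF2D is known as a dependency gene in acute myeloid leukaemia, and MEF2A is broadly expressed. Menin is a cofactor that holds the KMT2A complex, and the fusion proteins made from it, at target genes such as MEIS1.

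Library totals ran from 15561248 to 24262960 counts for OCI-AML3, and from 15264862 to 29168628 counts for NOMO1. Of 8 myeloid markers, 7 exceeded 5 CPM, read counts scaled to a common library total, in at least 1 group of OCI-AML3 and 8 did so in NOMO1. The exception in OCI-AML3 was MPO, at up to 2.49 CPM. Of 8 muscle markers, 0 exceeded 5 CPM in OCI-AML3 and 2 did so in NOMO1, the filament gene DES (up to 154 CPM) and CKM (up to 18.9 CPM). MYOD1 was at 0 counts in both lines and MYOG at 0 in OCI-AML3. Of 8 T and NK cell markers, 1 exceeded 5 CPM in OCI-AML3 and 3 in NOMO1, and of 8 epithelial and stromal markers, 3 and 5 did. Among 8 B cell markers, 1 and 3 did, the highest being EBF1 in OCI-AML3 (34.2 CPM) and CD79B in NOMO1 (27.7 CPM). For 8 erythroid and megakaryocyte markers the numbers were 0 and 3, and for 8 neuronal markers 0 and 0. The NOMO1 libraries in DMSO at day 3 stood apart, with 17.8% ± 0.2 (SD, n = 3) of counts from mitochondrial genes against 3.17% ± 0.48 (SD, n = 3) at day 6, so each NOMO1 comparison with that group is also given against DMSO day 6. At day 3 of VTP-50469, 1 library in each line lay far from the other members of its group. The root-mean-square log2 distance to the mean of those members was 0.396 for replicate 2 in OCI-AML3, which lay nearer to VTP-50469 day 6 (0.314), and 0.461 for replicate 1 in NOMO1. The other libraries lay at 0.157 to 0.356 in OCI-AML3 and at 0.150 to 0.311 in NOMO1. The OCI-AML3 libraries with both drugs at day 6 also differed from the rest of that line, with 12.3% ± 2.27 (SD, n = 3) of counts from mitochondrial genes against 6.16% with both drugs at day 3 and 4.41% under VTP-50469 at day 6. They had reads in 16742 to 17438 genes, against 18197 to 20372 with both drugs at day 3.

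The genes lie on different chromosomes of GRCh38. MEF2A occupies chromosome 15, 99565417 to 99716466, on the plus strand, MEF2C chromosome 5, 88717117 to 88904257, on the minus strand, and MEF2D chromosome 1, 156463727 to 156500828, on the minus strand (GENCODE 29). Of 7 RefSeq start windows of MEF2C, 1 has its start at 88883184, inside the gene model, 146 bases from the start of the antisense gene MEF2C-AS1. Transcription from these starts runs in opposite directions, away from each other. In all, 630 exon bases of MEF2C overlap exons of MEF2C-AS1 or MEF2C-AS2. The libraries were unstranded, so reads from such shared bases cannot be assigned to a strand. Short pieces around these starts are shown because they show where the antisense gene begins relative to an internal start of the gene with the opposite responses, and because a start of MEF2A and another start of MEF2C have a match to the element that MEF2 proteins bind. The sequences are RefSeq's (GRCh38.p14), 5′ to 3′ on the gene's strand. The capital letter marks the first transcribed base in the start pieces, and the capitals mark the match in the element pieces.
MEF2C internal start, chr5:88883180-88883209, minus strand: ctccagctctctgctcgctctgctcGcagt
MEF2C-AS1 start, chr5:88883305-88883334, plus strand: ggaggaggaggaggaagaaggaggaGgaag
MEF2A element, chr15:99565951-99565980, plus strand: ggcttgtctcCTAAAAATAGccccggtgtg
MEF2C element, chr5:88824500-88824529, minus strand: atattccataTTATTTTTAAggtgttctca
The pattern searched was the MEF2 consensus element, on both strands, in RefSeq windows of 300 bases at annotated starts. It was in 2 of 11 windows of the 3 genes, in 1 of 3 for MEF2A, 1 of 7 for MEF2C and 0 of 1 for MEF2D, and in 1050 of 35116 windows in all (2.99%). The match ended 14 bases before the start in MEF2A and 166 bases before it in MEF2C. A match is a description of the letters and not a site shown to be bound.

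In vehicle, the 2 lines differed in the levels of MEF2C and MEF2D. Levels are CPM scaled by the trimmed mean of M-values (TMM) over all 42 libraries, and in DMSO at day 6 MEF2C was at 66.55, 60.7 and 72.9 CPM in the OCI-AML3 libraries and at 239, 253 and 216 CPM in those of NOMO1. All NOMO1 libraries lay above all OCI-AML3 libraries, with a log2 fold change of 1.82 ± 0.18 (SE, n = 3 per line), given with no test. MEF2D was lower in NOMO1, at 712, 732 and 713 CPM in OCI-AML3 against 310.0, 292 and 287 CPM in NOMO1 (log2 fold change -1.28 ± 0.08, edgeR adjusted p = 1.32e-17). MEF2A was at 36.2, 37.5 and 33.3 CPM in OCI-AML3 and at 30.95, 36.0 and 30.45 CPM in NOMO1, groups that overlapped, with an adjusted p of 0.309 and a 95% interval of the log2 difference of -0.36 to 0.09. So 1 of the 2 tested genes differed between lines, beside 61.3% of all 18707 genes tested. In bulk RNA, fewer cells expressing a gene and less of its RNA per cell cannot be told apart.

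Over the 14 groups, MEF2C spanned the widest range of the 3 genes. Its group means ran from 24.6 CPM (NOMO1, both drugs, day 6) to 236 CPM (NOMO1, DMSO day 6), a ratio of 9.60. In order from the highest they were NOMO1 DMSO day 6, NOMO1 selumetinib, OCI-AML3 VTP-50469 day 6, OCI-AML3 both drugs day 6, NOMO1 DMSO day 3, OCI-AML3 VTP-50469 day 3, OCI-AML3 both drugs day 3, NOMO1 VTP-50469 day 6, OCI-AML3 DMSO day 6, OCI-AML3 selumetinib, OCI-AML3 DMSO day 3, NOMO1 VTP-50469 day 3, NOMO1 both drugs day 3 and NOMO1 both drugs day 6. The libraries of 8 of the 13 neighbouring pairs in this order overlapped. MEF2D ran from 170 CPM (NOMO1, VTP-50469 day 6) to 749 CPM (OCI-AML3, DMSO day 3), a ratio of 4.41, and every OCI-AML3 group stood above every NOMO1 group. MEF2A ran from 16.9 CPM (NOMO1, DMSO day 3) to 55.2 CPM (NOMO1, both drugs, day 6), a ratio of 3.28, and 11 of its 13 neighbouring pairs overlapped.

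**Figure D1:**
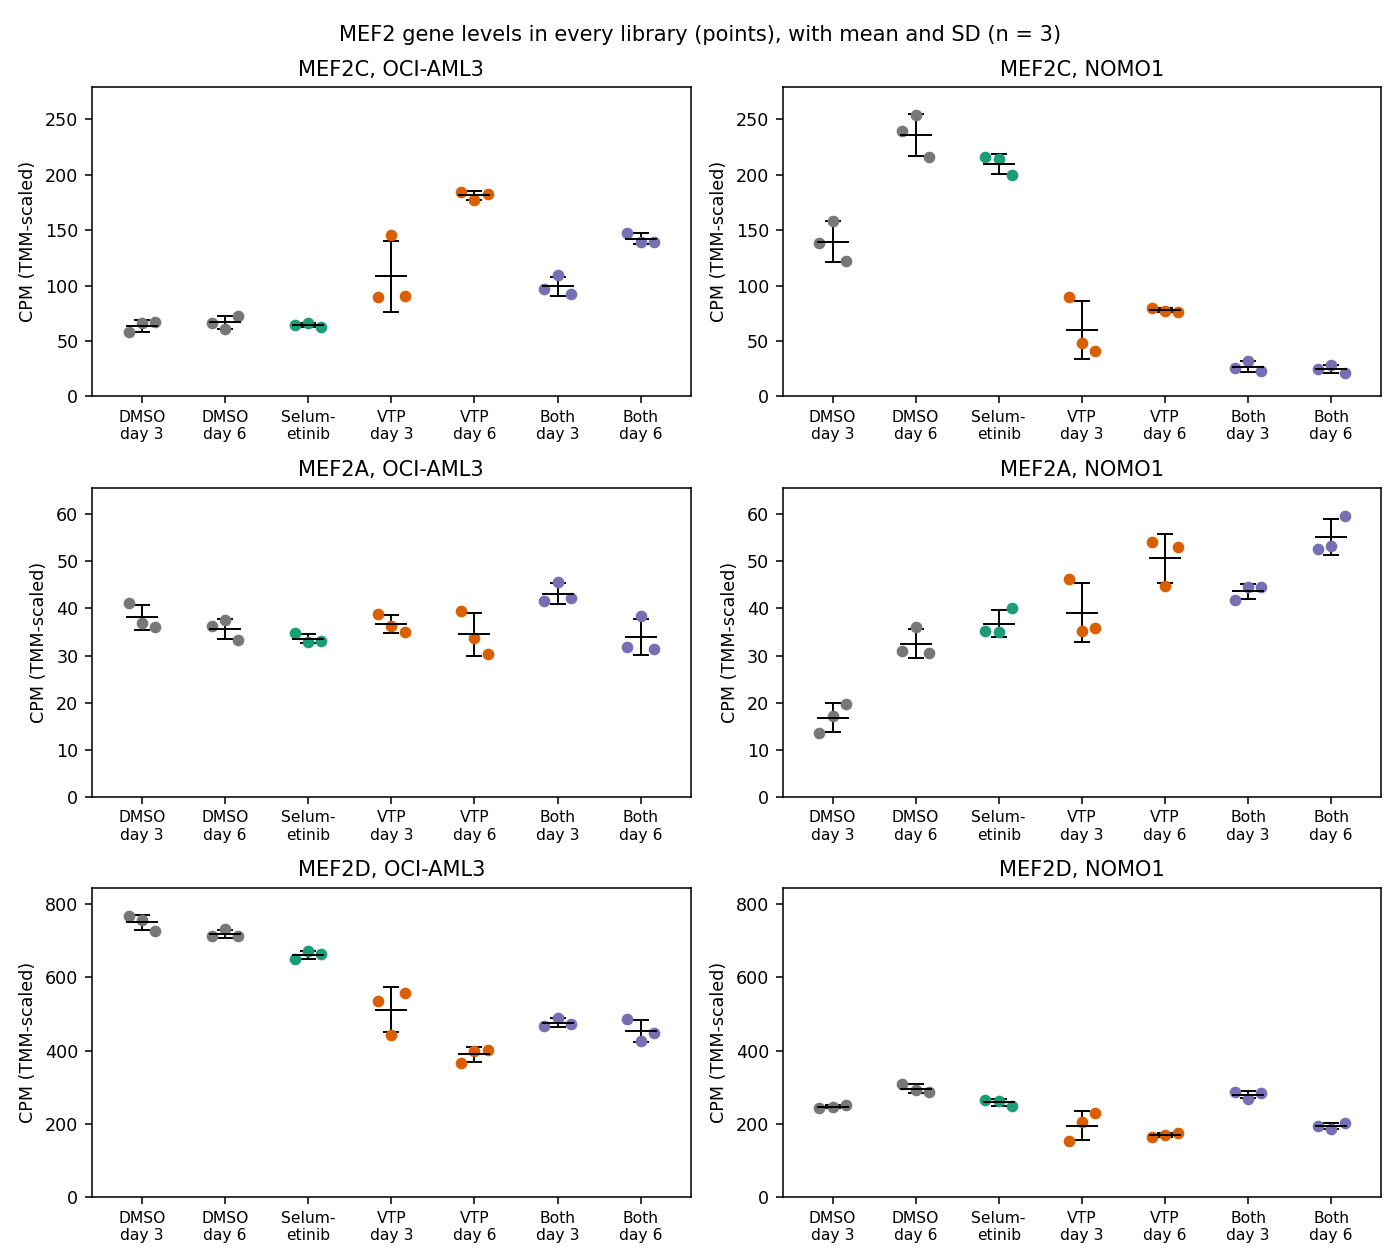
Level of MEF2C, MEF2A and MEF2D (CPM scaled by TMM, linear axis from 0) in every library of OCI-AML3 (left) and NOMO1 (right). Points are libraries, the bar is the mean and the whiskers are the SD (n = 3); within OCI-AML3 MEF2C is highest under VTP-50469 at day 6 (181 CPM), and within NOMO1 it is highest in DMSO day 6 (236 CPM) and lowest under both drugs (26.9 and 24.6 CPM).

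Under VTP-50469, the contrast that chose the genes, MEF2C in OCI-AML3 went from 57.7, 66.4 and 66.9 CPM in DMSO to 89.5, 145 and 90.4 CPM at day 3. At day 6 it went from the values above to 184, 177 and 183 CPM. The log2 fold changes were 0.78 ± 0.13 (SE) and 1.48 ± 0.13, and without replicate 2 of VTP-50469, the library that stood apart, the day 3 value was 0.50. In NOMO1 MEF2C went from 138.5, 158 and 122 CPM in DMSO to 89.4, 48.0 and 41.3 CPM at day 3, and at day 6 from the values above to 79.96, 77.25 and 76.5 CPM. The log2 fold changes were -1.26 ± 0.21 and -1.63 ± 0.21. The day 3 value was -2.01 against DMSO day 6, and -1.67 without replicate 1 of VTP-50469. The groups did not overlap at either day in either line. Of all genes tested, 10.9% and 34.7% were called in this contrast in OCI-AML3 at day 3 and day 6 (9.95% for day 3 against DMSO day 6), and 52.4% and 48.8% in NOMO1 (27.2%), shares given as background to a contrast that was not tested here.

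MEF2D was lower under VTP-50469 than in DMSO in both lines, as a description of the same contrast. In OCI-AML3 it was at 766, 756 and 726 CPM in DMSO and at 534, 442 and 557 CPM under VTP-50469 at day 3, and reached 367, 400 and 402 CPM at day 6, with log2 fold changes of -0.55 and -0.85. In NOMO1 it was at 242, 247 and 252 CPM in DMSO and at 152.5, 204.5 and 229 CPM under VTP-50469 at day 3, and at 164, 171 and 175 CPM at day 6, with log2 fold changes of -0.37 and -0.83. The day 3 value in NOMO1 was -0.62 against DMSO day 6, and -0.22 without replicate 1 of VTP-50469. The direction was thus shared by the lines for MEF2D and opposite for MEF2C. MEF2A in OCI-AML3 stayed between 30.4 and 41.2 CPM over the DMSO and VTP-50469 libraries. In NOMO1 it was at 13.6, 17.2 and 19.75 CPM in DMSO and at 46.3, 35.25 and 35.8 CPM under VTP-50469 at day 3 (log2 fold change 1.18, but 0.25 against DMSO day 6), and at 54.2, 44.7 and 53.0 CPM at day 6 (0.61).

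The opposite direction of MEF2C was tested by comparing both drugs at day 3 with selumetinib alone. No DMSO or VTP-50469 group is compared there, but their libraries entered the scaling, the gene filter and the estimate of spread. That comparison asks what the menin inhibitor adds to the MEK inhibitor. The genes were chosen with earlier results of these data known, so the test may not be independent of the choice. In OCI-AML3 MEF2C was at 64.35, 66.4 and 62.2 CPM under selumetinib and at 96.4, 109 and 92.6 CPM under both drugs, and all libraries with both drugs lay above those with selumetinib. It rose, with a log2 fold change of 0.61 ± 0.13 (SE, n = 3 per group, adjusted p = 0.00128). In NOMO1 it was at 216, 214 and 200 CPM under selumetinib and at 25.9, 32.0 and 22.8 CPM under both drugs, with no overlap. It fell, with a log2 fold change of -2.98 ± 0.23 (adjusted p = 1.1e-07). The difference between the lines was itself tested in a fit of all 42 libraries and was -3.59 ± 0.26 (NOMO1 minus OCI-AML3, 95% interval -4.11 to -3.07, adjusted p = 2.06e-11). Over 15 alternatives that difference stayed between -3.73 and -3.48, with adjusted p up to 6.33e-10. If the selumetinib libraries were taken at day 1, the added drug and the time cannot be told apart in these 2 comparisons. The same limit holds for every other result below that uses the selumetinib libraries.

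MEF2D also behaved differently between the lines in that comparison. In OCI-AML3 it was at 650, 671 and 664 CPM under selumetinib and at 466, 490 and 472 CPM under both drugs, and fell, with a log2 fold change of -0.50 ± 0.07 (adjusted p = 2.76e-06). In NOMO1 it was at 265, 264 and 247.5 CPM and at 287, 268 and 284.5 CPM, a log2 fold change of 0.10 ± 0.09 that did not pass (adjusted p = 0.532, 95% interval -0.08 to 0.27). The difference between the lines was 0.59 ± 0.12 (adjusted p = 3.1e-04). MEF2A rose in OCI-AML3 from 34.75, 32.95 and 33.04 CPM to 41.6, 45.7 and 42.2 CPM (log2 fold change 0.34 ± 0.10, adjusted p = 0.0119). That call was lost without selumetinib replicate 2 or 3 or without replicate 2 of both drugs (adjusted p 0.0542, 0.0547 and 0.0787). In NOMO1 MEF2A was at 35.3, 35.0 and 40.0 CPM and at 41.8, 44.7 and 44.5 CPM (log2 fold change 0.23, adjusted p = 0.196, or 0.0199 in a fit of the compared groups alone), and its line difference was -0.11 (adjusted p = 0.776, 95% interval -0.43 to 0.20). All 3 genes were thus called in OCI-AML3, where 27.2% of genes tested were called, and 1 of 3 in NOMO1, where 20.1% were. The line difference was called for 2 of 3, against 11.9% of genes.

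**Figure D2:**
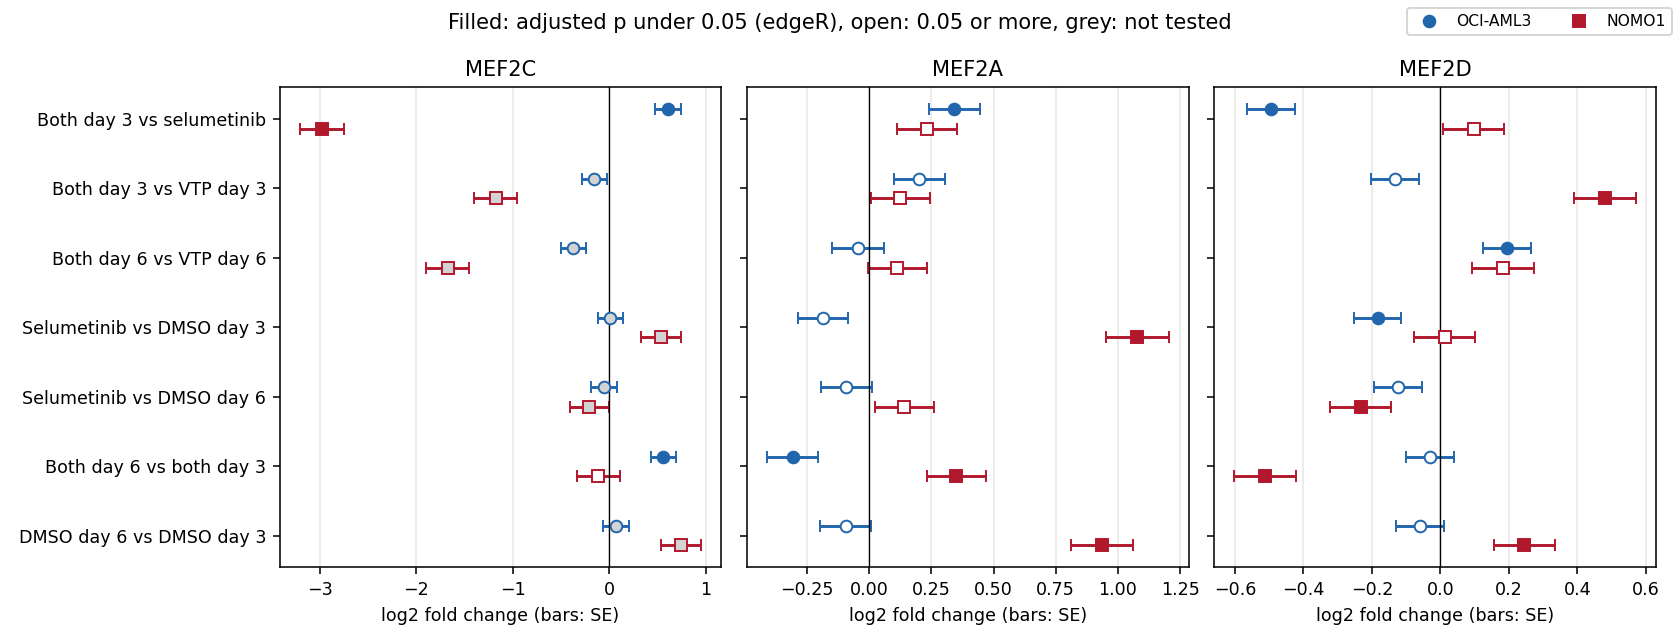
Log2 fold change (horizontal axis, bars are the SE) of MEF2C, MEF2A and MEF2D in 7 comparisons within OCI-AML3 (circles) and NOMO1 (squares), filled where the edgeR adjusted p was under 0.05, open where it was not and grey where no test was made. For both drugs at day 3 against selumetinib, MEF2C lies at 0.61 in OCI-AML3 and at -2.98 in NOMO1.

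Under both drugs, MEF2C in NOMO1 was lower than under VTP-50469 alone. These comparisons share the VTP-50469 libraries with the contrast that chose the genes, so the MEF2C values carry no test. At day 3, VTP-50469 libraries at 41.3 to 89.4 CPM stood against 22.8 to 32.0 CPM under both drugs, with no overlap (log2 fold change -1.18 ± 0.22, and -0.77 without VTP-50469 replicate 1). At day 6, 76.5 to 79.96 CPM stood against 24.8, 28.0 and 20.98 CPM (log2 fold change -1.67 ± 0.22). In OCI-AML3 the day 3 groups overlapped (log2 fold change -0.16, and 0.11 without VTP-50469 replicate 2). At day 6 MEF2C was at 148, 139 and 139.5 CPM under both drugs, below the 177 to 184 CPM under VTP-50469 (log2 fold change -0.37 ± 0.13). The mitochondrial share was 12.3% and 4.41% in those groups, and its part in the OCI-AML3 values at day 6 was not tested. The day 6 value of NOMO1 minus that of OCI-AML3 was -1.31 ± 0.26.

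MEF2D rose in 2 of these 4 comparisons. In NOMO1 at day 3 it rose from 152.5, 204.5 and 229 CPM under VTP-50469 to 287, 268 and 284.5 CPM under both drugs (log2 fold change 0.48 ± 0.09, adjusted p = 1.1e-04, and 0.33 without VTP-50469 replicate 1). At day 6 it was at 194, 187 and 203 CPM under both drugs, above VTP-50469 in every library, but did not pass (log2 fold change 0.18, adjusted p = 0.137, or 0.00691 in a fit of the compared groups alone). In OCI-AML3 it did not pass at day 3 (log2 fold change -0.13, adjusted p = 0.129), except without VTP-50469 replicate 2, where it fell by 0.23 (adjusted p = 0.00384). At day 6 it rose in OCI-AML3 to 485, 425 and 449 CPM (log2 fold change 0.20 ± 0.07, adjusted p = 0.0257), a call lost without VTP-50469 replicate 1 or replicate 1 or 3 of both drugs (adjusted p 0.167, 0.156 and 0.0528). The line difference at day 6 was -0.02 (adjusted p = 0.969, 95% interval -0.25 to 0.21). MEF2A passed in none of these 4 comparisons, with log2 fold changes of -0.05 to 0.20 and adjusted p of 0.114 to 0.759. In OCI-AML3, 0 of these 2 genes at day 3 and 1 of 2 at day 6 were called, beside 42.2% and 41.3% of all genes. In NOMO1, 1 of 2 at day 3 and 0 of 2 at day 6 were called, beside 35.2% and 27.6%, and the line difference at day 6 was called for 0 of 2, beside 20.6%.

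For selumetinib alone, the values in NOMO1 depended on the control group. The labels include no DMSO group at day 1, so in both lines the values may also hold a difference in time. In OCI-AML3 the selumetinib libraries overlapped those in DMSO at day 3 for MEF2C, with a log2 fold change of 0.01 ± 0.13 and no test, since DMSO libraries defined its choice. In NOMO1 MEF2C was at 0.54 ± 0.21 against DMSO day 3, with no overlap, and at -0.21 ± 0.20 against DMSO day 6, with overlap. MEF2A in NOMO1 rose against DMSO day 3 (log2 fold change 1.08 ± 0.13, adjusted p = 3.76e-08) and did not pass against DMSO day 6 (0.14, adjusted p = 0.404). MEF2D fell by 0.18 in OCI-AML3 on the log2 scale (adjusted p = 0.0496), a call lost against DMSO day 6 (adjusted p = 0.209) and without any 1 of the 6 libraries (adjusted p 0.0612 to 0.152). In NOMO1 MEF2D was at 0.01 against DMSO day 3 (adjusted p = 0.918) and -0.23 against day 6 (adjusted p = 0.0477). Of the 2 tested genes, 1 was called in OCI-AML3 where 27.4% of all genes were (0 and 27.5% against DMSO day 6), and 1 in NOMO1 where 54.1% were (1 and 32.2% against DMSO day 6).

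Between the lines, the response to selumetinib differed for MEF2A by 1.31 ± 0.16 on the log2 scale against DMSO day 3 (adjusted p = 1.2e-08) and by 0.27 against DMSO day 6 (adjusted p = 0.377). The untested values for MEF2C were 0.57 and -0.12, and those for MEF2D were 0.25 (adjusted p = 0.102) and -0.07 (adjusted p = 0.836). Against DMSO day 3, 1 of the 2 tested genes was called, beside 33.7% of all genes. Between the DMSO groups of NOMO1, MEF2A and MEF2D were higher at day 6 than at day 3 by 0.94 (adjusted p = 4.39e-07) and 0.25 (adjusted p = 0.0239), 2 of 2 tested genes beside 51% of all genes, and MEF2C was 0.74 higher with no test. The part of the mitochondrial share in these values was not tested. In OCI-AML3 neither MEF2A nor MEF2D, and by edgeR 0 of 16384 genes, was called between the DMSO days (174 at an unadjusted p under 0.05, and 1 by DESeq2).

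Against DMSO, both drugs together lowered MEF2D in OCI-AML3 at both days and raised MEF2A in NOMO1 at both days. MEF2D in OCI-AML3 fell by 0.68 at day 3 (adjusted p = 2.37e-09) and by 0.65 at day 6 (adjusted p = 6e-09) on the log2 scale. In NOMO1 it fell by 0.65 at day 6 (adjusted p = 5.83e-07) and was at 0.11 at day 3 (adjusted p = 0.303, and -0.14 with adjusted p = 0.228 against DMSO day 6). MEF2A in NOMO1 rose by 1.31 at day 3 (adjusted p = 6.23e-10) and by 0.37 against DMSO day 6 (adjusted p = 0.0116), and by 0.72 at day 6 (adjusted p = 7.42e-06). In OCI-AML3 it was at 0.16 and -0.06 (adjusted p 0.22 and 0.679), and at 0.25 with adjusted p = 0.0443 when day 3 was set against DMSO day 6. MEF2C, not tested, was at 0.62 and 1.11 in OCI-AML3 and at -2.44 and -3.30 in NOMO1 (-3.19 for day 3 against DMSO day 6). The part of the raised mitochondrial share of both drugs at day 6 in the OCI-AML3 values was not tested. Of the 2 tested genes, 1 was called at each day in OCI-AML3, beside 48.1% and 49.6% of all genes (2 and 47.9% for day 3 against DMSO day 6). In NOMO1 1 was called at day 3 and 2 at day 6, beside 58.7% and 55.4% (1 and 45.3% for day 3 against DMSO day 6).

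The interaction of the drugs at day 3, the departure of the combination from the sum of the single-drug log2 changes, depended on the control group in NOMO1. It also rests on the selumetinib libraries, and if these were taken at day 1 it includes a difference in time. For MEF2D it was 0.47 ± 0.13 (adjusted p = 0.00456, and 0.30 with adjusted p = 0.00288 without VTP-50469 replicate 1) with DMSO day 3 and 0.71 (adjusted p = 3.31e-04) with DMSO day 6. For MEF2A it was -0.95 ± 0.17 (adjusted p = 7.66e-05) with DMSO day 3 and -0.02 (adjusted p = 0.973) with DMSO day 6. For MEF2C, not tested, it was -1.71 (-1.32 without VTP-50469 replicate 1) and -0.97. In OCI-AML3 MEF2A was at 0.39 (adjusted p = 0.0976, or 0.0413 in a fit of the 4 groups alone), MEF2D at 0.05 (adjusted p = 0.866, and -0.042 without VTP-50469 replicate 2) and MEF2C at -0.17 with no test (0.11 without that library). Of the 2 tested genes, 2 were called in NOMO1 and 0 in OCI-AML3, beside 37% and 8.94% of all genes. With DMSO day 6 as the control, 1 was called in NOMO1 and 0 in OCI-AML3, beside 13.9% and 8.66%.

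Under both drugs, MEF2C changed with time in OCI-AML3 and MEF2D in NOMO1. From day 3 to day 6 MEF2C rose in OCI-AML3 (log2 fold change 0.56 ± 0.13, adjusted p = 0.0066) and was at -0.11 in NOMO1 (adjusted p = 0.726, 95% interval -0.56 to 0.33), where it stood at 22.8 to 32.0 CPM at day 3. MEF2D fell by 0.51 in NOMO1 (adjusted p = 4.54e-05) and was at -0.03 in OCI-AML3 (adjusted p = 0.818). MEF2A fell by 0.31 in OCI-AML3 (adjusted p = 0.0413) and rose by 0.35 in NOMO1 (adjusted p = 0.0187). In OCI-AML3 the mitochondrial share went from 6.16% to 12.3% between these days, and its part in the MEF2C and MEF2A values was not tested. Both MEF2A calls were unstable. The first was lost in a fit of the compared groups alone (adjusted p = 0.134) and without replicate 2 or 3 of day 3 or replicate 1 or 3 of day 6 (adjusted p 0.0625 to 0.146), and the second without replicate 1 of day 3 or replicate 3 of day 6 (adjusted p 0.0757 and 0.0922). In each line 2 of 3 genes were called, beside 15% of genes in OCI-AML3 and 40.2% in NOMO1. Whether these time courses differ between lines was not tested.

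Levels of different genes are compared per exon length, as CPM per kilobase. On that scale MEF2D dominated the family in every group. In OCI-AML3 the sum of the 3 genes was 123 ± 1.49 (SD, n = 3) in DMSO day 6 and 81.3 ± 2.28 under VTP-50469 at day 6, and the share of MEF2C went from 4.61% to 19% while that of MEF2D went from 91.2% to 74.85%. In NOMO1 the sum was 71.0 ± 3.08 in DMSO day 6, 40.5 ± 0.89 under VTP-50469 and 40.5 ± 1.48 under both drugs at day 6. The share of MEF2C there was 28.2%, 16.4% and 5.19%, and that of MEF2A 6.6%, 18.05% and 19.7%. At day 6 the sum was thus lower under the menin inhibitor in both lines, with opposite moves of the MEF2C share. At day 3 in NOMO1 it was 52.3 under both drugs and 52.9 in DMSO. These sums rest partly on the contrast that chose the genes and carry no test.

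**Figure D3:**
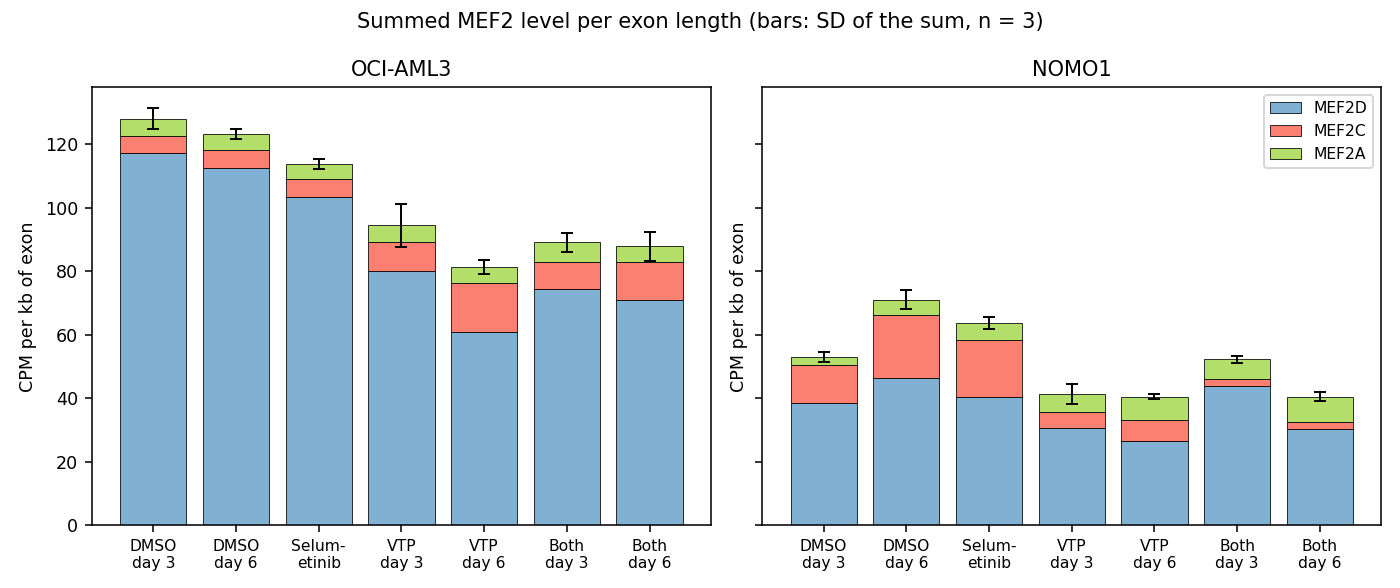
Summed level of MEF2D, MEF2C and MEF2A (stacked bars, CPM per kilobase of exon, axis from 0) in each group of OCI-AML3 (left) and NOMO1 (right); whiskers are the SD of the sum over 3 libraries. The sum is 123 in OCI-AML3 and 71.0 in NOMO1 in DMSO day 6, and 81.3 and 40.5 under VTP-50469 at day 6.

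The fourth MEF2 gene, MEF2B, was close to absent, with at most 12 counts in any OCI-AML3 library and at most 16 in any NOMO1 library. Its readthrough transcript with BORCS8 had at most 22 and 16 counts. MEF2C-AS2, the antisense gene at the other end of MEF2C, had 5 counts in all OCI-AML3 libraries and 0 in those of NOMO1.

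MEF2C-AS1, which starts beside MEF2C as shown above, was low in OCI-AML3 and was lower with VTP-50469 in NOMO1, as MEF2C was. In NOMO1 it was at 8.25, 7.77 and 10.1 CPM under selumetinib and at 1.37, 1.48 and 1.105 CPM under both drugs at day 3, with no overlap, and fell by 2.74 ± 0.45 on the log2 scale (adjusted p = 1.09e-04). In DMSO day 6 it was at 5.39, 7.46 and 5.71 CPM, against 0.0412 to 1.004 CPM under VTP-50469 and 0 to 0.481 CPM under both drugs at day 6. In OCI-AML3 all libraries lay between 0.566 and 3.49 CPM. There both drugs at day 3 against selumetinib gave -0.83 (adjusted p = 0.136). Both drugs at day 6 exceeded VTP-50469 by 1.38 (adjusted p = 0.0073), a comparison in which MEF2C was at -0.37. From day 3 to day 6 under both drugs, MEF2C-AS1 rose by 1.38 in OCI-AML3 (adjusted p = 0.0205), as MEF2C did. In NOMO1 it fell by 2.78 (adjusted p = 0.00198), to 0 to 10 counts per library, while MEF2C was at -0.11. The shares of all genes called were 20.1% in NOMO1 and 27.2% in OCI-AML3 against selumetinib, and 41.3% against VTP-50469 in OCI-AML3 at day 6. Between days they were 15% in OCI-AML3 and 40.2% in NOMO1. Since 422 exon bases of MEF2C-AS1 overlap exons of MEF2C and the libraries were unstranded, part of its counts could be MEF2C reads. How large that part is was not tested.

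**Figure D4:**
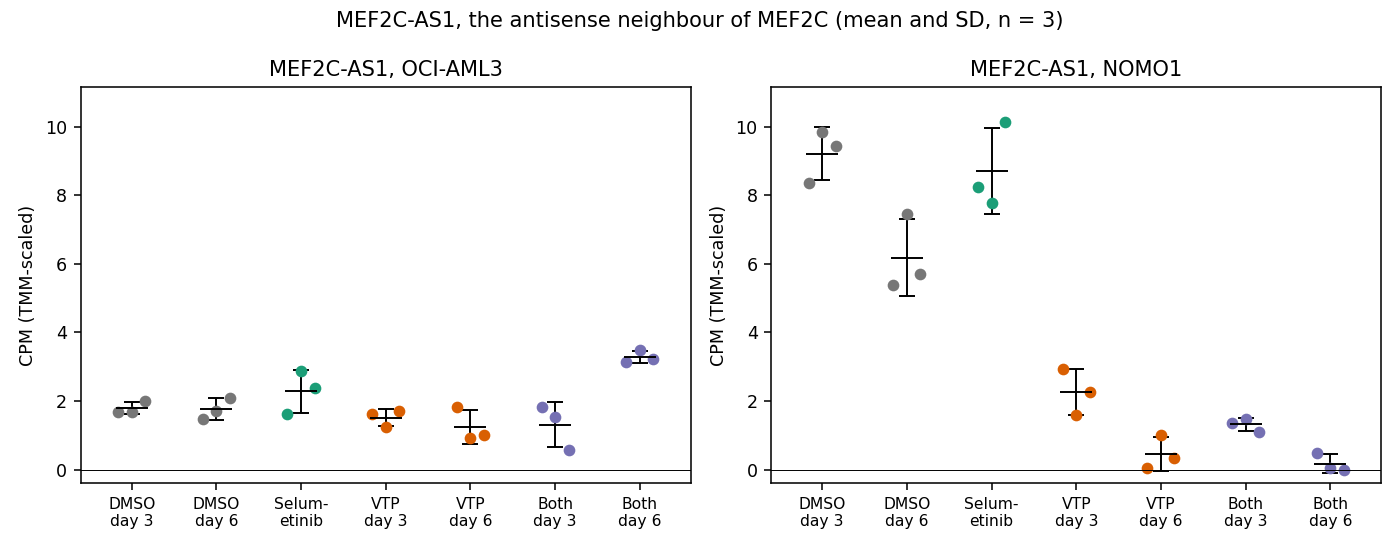
Level of MEF2C-AS1 (CPM scaled by TMM) in every library of OCI-AML3 (left) and NOMO1 (right), with mean and SD (n = 3). NOMO1 means are 9.22 and 6.18 CPM in DMSO and 8.72 CPM under selumetinib, and at most 2.26 CPM in the groups that received VTP-50469.

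Regulators and known targets of MEF2, and related leukaemia genes, were read from 5 lists in the comparison of both drugs at day 3 with selumetinib. The uncertain day of the selumetinib libraries limits these list results as it does those above. Of 18 tested class IIa deacetylases and their kinases, 6 rose and 1 fell in OCI-AML3, with a median log2 fold change of 0.20 against -0.01 over all genes, and 3 rose and 1 fell in NOMO1 (median 0.09 against 0.01). Of all genes tested, 27.2% were called in OCI-AML3 and 20.1% in NOMO1, which is the background to the counts of each list in this comparison. Of the 4 deacetylases, which hold MEF2 inactive, HDAC5, HDAC7 and HDAC9 rose in OCI-AML3 and HDAC4 was at -0.12 (adjusted p = 0.432). HDAC9 rose from 17.1 ± 1.5 to 40.6 ± 3.8 CPM (SD, n = 3, log2 fold change 1.23 ± 0.10, adjusted p = 3.36e-10), HDAC7 by 0.71 and HDAC5 by 0.63. In NOMO1 HDAC9 was at 10.7 ± 1.6 and 11.1 ± 0.8 CPM (0.04, adjusted p = 0.9). Under VTP-50469 alone, with no test, HDAC9 in NOMO1 was at 6.44 against 13.6 CPM in DMSO at day 3. At day 6 it was at 12.9 against 24.7 CPM. In OCI-AML3 it was at 60.0 against 19.6 CPM at day 3, and at 75.2 against 22.6 CPM at day 6. The line difference for both drugs against selumetinib was -1.19 for HDAC9 (adjusted p = 4.65e-06), -0.59 for HDAC7 (adjusted p = 0.00384) and -0.47 for HDAC5 (adjusted p = 0.0108). CAMK2D, a calcium-dependent kinase on the same list, rose by 0.50 in OCI-AML3 and fell by 0.51 in NOMO1 (line difference -1.01, adjusted p = 2.6e-06).

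Of the 8 kinases of the p38 and ERK5 routes, 1 rose in OCI-AML3 (median 0.16) and 5 rose in NOMO1 (median 0.32), and none fell, beside 27.2% and 20.1% of all genes called. MAPK14, which encodes p38 alpha, rose by 0.51 ± 0.06 in NOMO1 (adjusted p = 2.63e-07) and was at 0.14 in OCI-AML3 (adjusted p = 0.146), a line difference of 0.36 (adjusted p = 0.00369). MAP3K3, an upstream kinase of ERK5, rose in both, by 0.63 in NOMO1 and 0.30 in OCI-AML3. MAP3K2 rose in NOMO1 by 0.49 and MAP2K3, which activates p38, by 0.34, while MAPK7, the gene of ERK5 itself, was at 0.13 in OCI-AML3 (adjusted p = 0.677) and 0.10 in NOMO1 (adjusted p = 0.652).

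Among calcineurin genes and coactivators, 3 of 11 tested rose and 1 fell in OCI-AML3 (median 0.18), and 4 of 12 rose and 2 fell in NOMO1 (median 0.04), beside 27.2% and 20.1% of all genes. NFATC1, a calcineurin-regulated transcription factor, rose by 0.49 ± 0.14 in OCI-AML3 (22.7 to 32.3 CPM, adjusted p = 0.0109). In NOMO1 it fell by 0.54 ± 0.09 (112 to 77.3 CPM, adjusted p = 4.81e-05), a line difference of -1.04 (adjusted p = 1.16e-05). These were the directions of MEF2C in this comparison. Under VTP-50469 alone, with no test, NFATC1 in OCI-AML3 was at 19.6 against 18.15 CPM in DMSO at day 3. At day 6 it was at 21.35 against 19.9 CPM. In NOMO1 it was at 101 against 130 CPM at day 3, and at 133 against 135 CPM at day 6. For both drugs against selumetinib, CARM1, an arginine methyltransferase and coactivator, fell in both lines, by 0.33 and 0.30. PPP3CA, the catalytic subunit of calcineurin, rose by 0.31 in OCI-AML3 (adjusted p = 0.00124) and was at 0.05 in NOMO1 (adjusted p = 0.743), and CREBBP, a histone acetyltransferase, rose by 0.36 in OCI-AML3 and was at 0.08 in NOMO1 (adjusted p = 0.835).

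Of 9 genes known as MEF2 targets in one tissue or another, 3 rose in OCI-AML3 (median 0.21) and 4 in NOMO1 (median 0.63), and none fell, beside 27.2% and 20.1% of all genes. HDAC9 stands on this list too. TXNIP, a regulator of glucose uptake, rose by 1.46 ± 0.07 in OCI-AML3 and by 1.13 ± 0.10 in NOMO1 (line difference -0.34, adjusted p = 0.0875). KLF6 rose in NOMO1 by 0.63 and was at 0.10 in OCI-AML3 (adjusted p = 0.527, line difference 0.53, adjusted p = 0.0245). KLF2 rose in both lines, by 0.55 in OCI-AML3 and 0.78 in NOMO1. In OCI-AML3 it went from 26.9 to 40.0 CPM, and stood at 50.0 CPM in DMSO day 3. Under VTP-50469 alone, with no test, KLF2 in OCI-AML3 was at 25.9 CPM at day 3. At day 6 it was at 23.05 against 53.6 CPM in DMSO. In NOMO1 KLF2 under VTP-50469 was at 13.3 against 18.3 CPM in DMSO at day 3. At day 6 it was at 33.8 against 7.375 CPM. Whether any MEF2 gene acts on the genes of this list in these lines was not tested.

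The last list held 7 genes tied to MEF2 genes, menin or their partners in leukaemia, of which 2 rose and 2 fell in OCI-AML3 and 1 rose and 3 fell in NOMO1 (medians 0.11 and -0.02), beside 27.2% and 20.1% of all genes. IRF8, a transcription factor known as a partner gene of MEF2D in acute myeloid leukaemia, fell in both lines, from 1133 ± 44 to 515 ± 41 CPM in OCI-AML3 (log2 fold change -1.16 ± 0.17, adjusted p = 4.87e-05) and from 228 ± 4 to 141 ± 3 CPM in NOMO1 (-0.71 ± 0.07, adjusted p = 1.19e-08). MEIS1, a menin target, fell by 4.31 in NOMO1 (45.1 ± 4.3 to 2.31 ± 0.46 CPM, adjusted p = 8.95e-15) and by 0.40 in OCI-AML3 (adjusted p = 0.00908). HOXA9 fell by 0.81 in NOMO1 (adjusted p = 3.41e-05) and was at 0.11 in OCI-AML3 (adjusted p = 0.444). LMO2 rose by 0.76 and HEXIM1 by 0.88 in OCI-AML3, and were at 0.16 and 0.12 in NOMO1 (adjusted p 0.2 and 0.645), with line differences of -0.61 (adjusted p = 5.53e-05) and -0.76 (adjusted p = 0.00542). LYL1 rose by 0.37 in NOMO1, and ZMYND8, a chromatin reader, passed in neither line (adjusted p 0.347 and 0.92).

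**Figure D5:**
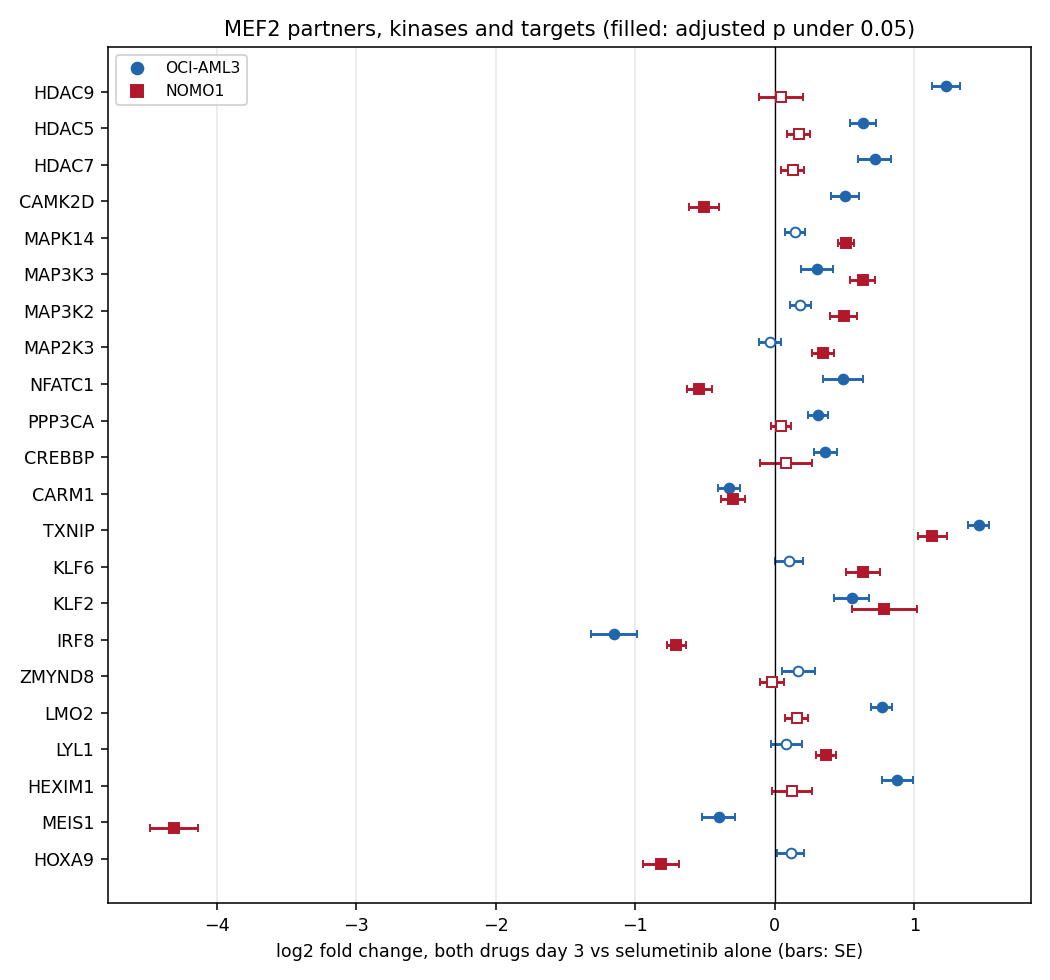
Log2 fold change (horizontal axis, bars are the SE) of 22 genes that regulate, partner or respond to MEF2, for both drugs at day 3 against selumetinib in OCI-AML3 (circles) and NOMO1 (squares), filled where the edgeR adjusted p was under 0.05. MEIS1 in NOMO1 lies at -4.31 and HDAC9 in OCI-AML3 at 1.23.

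When selumetinib was added to VTP-50469 at day 6, IRF8 moved in opposite directions, rising from 241 ± 23 to 604 ± 17 CPM in OCI-AML3 (log2 fold change 1.31 ± 0.17, adjusted p = 8.46e-06) and falling from 164 ± 7 to 137 ± 9 CPM in NOMO1 (-0.27 ± 0.07, adjusted p = 0.00361). These opposite directions were seen at day 6 only, and the line difference was not tested. At day 3 IRF8 was at 94.3 ± 4.2 CPM under VTP-50469 and 141 ± 3 CPM under both drugs in NOMO1, with no overlap. In OCI-AML3 it was at 422 ± 139 and 515 ± 41 CPM at day 3, groups that overlapped. At day 6 HDAC5 rose in both lines, by 0.57 and 0.80, while HDAC9 fell by 0.52 in OCI-AML3 (adjusted p = 5.74e-05) and was at -0.03 in NOMO1 (adjusted p = 0.916). Of the deacetylases and kinases, 4 rose and 3 fell in OCI-AML3 and 9 rose and 0 fell in NOMO1, beside 41.3% and 27.6% of all genes called. Of the targets, 4 rose and 3 fell in OCI-AML3 and 4 rose and 0 fell in NOMO1, beside the same shares. The part of the mitochondrial share of the OCI-AML3 libraries with both drugs at day 6 in these counts was not tested. KLF4 rose most among them in OCI-AML3, by 2.31 ± 0.15 (adjusted p = 7.63e-13).

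The 3 genes did not share a pattern. After each line was centred on its own mean, the 14 group means gave a Pearson r of -0.944 between MEF2C and MEF2D over the 7 groups of OCI-AML3 and of 0.448 over those of NOMO1, as a description of groups that share libraries and treatments. Of 11120 candidate genes, those most like MEF2A over the 14 group means were NEK7 (r = 0.986), ARHGAP35 (0.979), PTPRC (0.979), RCOR1 (0.976) and EFCAB14 (0.975). Those most like MEF2C were VPS25 (0.871), RXFP1 (0.855), GNAI1 (0.845), FAR2 (0.836) and VPS26A (0.831). For MEF2D they were UBE2E2 (0.907), CCNB1IP1 (0.906), LETMD1 (0.905), IGF2BP2 (0.900) and PRR11 (0.893). Within single lines, over 7 groups each, r with MEF2A lay between 0.354 and 0.841 for its 5 genes in OCI-AML3, while in NOMO1 the values lay between 0.987 and 0.995. In NOMO1 MEF2A was at 16.9 CPM in DMSO day 3, the group with the raised mitochondrial share, and at 32.5 to 55.2 CPM in the other groups. How far the r values of MEF2A rest on that group was not tested.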

How the data were processed

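RNA from 42 libraries of 2 cell lines was sequenced as unstranded paired-end TruSeq libraries, per the labels' protocols. The values used are the raw read counts per gene deposited by the authors. The submitters' processing notes name STAR 2.11a, featureCounts, Subread 2.0.6 and DESeq2 1.44.0 and the build hg38, and the table's header names GENCODE 30; no other step is given in the sources used here. Of 58870 rows, 1 with an empty cell was left out. Another 3 columns match no labelled library, equal columns that were used, and were not used. Library totals are in the report and limit precision for low genes.

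Counts were tested per line over 21 libraries with edgeR 4.0.16 (R 4.3.3): filterByExpr (16384 and 16561 genes), TMM scaling, a quasi-likelihood test with 1 mean per group, and Benjamini-Hochberg adjustment over all genes tested, with a threshold of 0.05. Line differences came from 1 fit of 42 libraries (18707 genes). SEs were derived from the F statistic, and 95% intervals are SE-based approximations. CPM levels used TMM totals over all libraries, and levels per length used exon lengths of GENCODE 29. The script was tested on simulated data. MEF2C was tested only where no DMSO or VTP-50469 group is compared. These comparisons were both drugs at day 3 against selumetinib, both drugs between days, and the line difference in the first. Their fits still took the scaling, the gene filter and the spread from all libraries. The 3 genes and all lists were chosen with earlier results of these data known. Named list genes were the 4 with the lowest adjusted p in either line per list and all 7 leukaemia partners (MAPK7, KLF4 and HDAC4 were named after their values were seen, and the consensus element was searched in a form chosen after a first, stricter pattern had matched the MEF2A start). Genes most like a member were the 5 with the highest r. Alternatives were RLE scaling, DESeq2 1.42.0, no filter, a replicate block, only the compared groups, DMSO day 6 as control, and leaving out each library; the uses of DMSO day 6 for VTP-50469 and for line differences were added after the libraries were seen. Residuals of same-numbered libraries correlated at -0.089 to 0.041 in OCI-AML3 and at -0.076 to 0.049 in NOMO1 (63 pairs each), so numbers were not treated as pairs.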

Additional observations from a re-analysis of the deposited data

Results flagged for a closer look

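The responses that differed between the 2 lines by a direct test were the following, each as NOMO1 minus OCI-AML3 on the log2 scale. For both drugs at day 3 against selumetinib alone, MEF2C differed by -3.59 (adjusted p = 2.06e-11) and MEF2D by 0.59 (adjusted p = 3.1e-04). For selumetinib against DMSO day 3, MEF2A differed by 1.31 (adjusted p = 1.2e-08), which became 0.27 (adjusted p = 0.377) with DMSO day 6 as the control in both lines.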

How the results depend on the processing

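Of 601 recomputed log2 fold changes of the 3 genes in tested comparisons, 552 kept their direction and side of the threshold, 29 lost and 5 gained a call and 15 changed sign. Of 350 in untested comparisons, 336 moved by less than the spread between libraries and 13 changed sign. The MEF2C values for both drugs at day 3 against selumetinib kept theirs in all 11 alternatives per line (0.51 to 0.64 in OCI-AML3, -3.14 to -2.87 in NOMO1). Causes of the changes below were not tested. Against DMSO day 6 in place of day 3, NOMO1 gave MEF2C -2.01 for VTP-50469, -3.19 for both drugs, -0.97 for the interaction and -0.21 for selumetinib, MEF2A 0.14 for selumetinib and -0.018 for the interaction, and MEF2D -0.23 for selumetinib and -0.14 for both drugs. OCI-AML3 gave MEF2D -0.12 for selumetinib, MEF2A 0.25 for both drugs and MEF2D -0.0095 for the interaction, and the line differences for selumetinib became 0.27 (MEF2A), -0.12 (MEF2C) and -0.074 (MEF2D). For selumetinib against DMSO day 3, MEF2D in OCI-AML3 lost its call under RLE and DESeq2 (-0.17 in each), with no filter (-0.18) and with the replicate block (-0.18). The untested MEF2C value for both drugs against VTP-50469 at day 6 in OCI-AML3 became -0.33 under RLE and DESeq2 and -0.32 with the compared groups alone. MEF2D in NOMO1 turned to -0.017 under RLE and DESeq2 and to -0.016 with the compared groups alone, and its rise between DMSO days lost its call under RLE and DESeq2 (0.19 in each). With only the compared groups, MEF2A in OCI-AML3 gave 0.0069 for both drugs against VTP-50469 at day 6, 0.42 for the interaction and -0.34 from day 3 to day 6 under both drugs. In NOMO1 MEF2A gave 0.22 for both drugs against selumetinib, and MEF2D 0.19 for both drugs against VTP-50469 at day 6. DESeq2 and no filter each called 1 gene between DMSO days in OCI-AML3, where edgeR called 0.

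Leaving out each library gave these ranges where a call or sign changed or an untested value moved, except for some untested values near 0. In OCI-AML3 they were, for selumetinib against DMSO day 3, -0.21 to -0.17 (MEF2D), for both drugs against VTP-50469 at day 3, -0.29 to 0.11 (MEF2C) and -0.23 to -0.079 (MEF2D), and at day 6, -0.14 to 0.052 (MEF2A) and 0.14 to 0.24 (MEF2D). For the interaction they were -0.30 to 0.11 (MEF2C) and -0.042 to 0.098 (MEF2D), for both drugs against selumetinib 0.28 to 0.37 (MEF2A), and for both drugs from day 3 to day 6 -0.45 to -0.26 (MEF2A). In NOMO1 they were -1.94 to -1.32 for the interaction (MEF2C), and from day 3 to day 6 under both drugs 0.29 to 0.39 (MEF2A) and -0.22 to 0.037 (MEF2C). The MEF2D line difference at day 6 ran from -0.055 to 0.038. Untested values near 0 also changed sign over all alternatives in OCI-AML3. MEF2A for VTP-50469 at day 6 ran from -0.12 to 0.073, and MEF2C for selumetinib against DMSO day 3 from -0.059 to 0.049. With the replicate block, the paired analysis by replicate number, MEF2C for both drugs at day 3 against selumetinib was 0.60 in OCI-AML3 and -2.99 in NOMO1, the untested difference of MEF2C between lines in DMSO day 6 was 1.98, and the block changed no call but that of MEF2D named above. Of 21 libraries, 6 in OCI-AML3 and 4 in NOMO1 correlated best with their own number.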
